A study of Mus musculus with 32 samples.

Results

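Oligodendrocyte precursor cells (OPCs) are dividing glia that carry the PDGF receptor and the proteoglycan NG2 and that can leave the cell cycle to form myelinating oligodendrocytes. They receive synaptic input from neurons, and they remain in the adult brain, where new oligodendrocytes continue to form. In the median eminence (ME), a circumventricular organ at the base of the hypothalamus, they lie next to vessels that are open to circulating signals. 299 of the 5982 cells in the data, or 5.00% (95% interval 4.46% to 5.58%), were taken as OPCs. They were chosen on their unique molecular identifier (UMI) counts, where 1 UMI stands for 1 captured transcript. A cell had to hold at least 1 UMI of Pdgfra, at least 5 UMIs summed over Pdgfra, Cspg4, C1ql1 and Lhfpl3, at most 2 UMIs of Bmp4 and Enpp6, under 5 UMIs of Dcn, and under 20 UMIs summed over the neuronal genes Snap25, Syt1, Stmn2 and Stmn3. Since these counts chose the cells, differences between OPCs and other cells are a description, and no test was run on them.

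The cells came from the ME of male C57BL/6j mice aged 40 to 47 days. 5 mice were fasted overnight for 16 h, and another 5 were given food again for 1 h. The tissue of each group of 5 was pooled, and live single cells were sorted into 2 droplet libraries per condition, which are spread over 32 sample records. No allele or transgene is given for either group, the overnight fast is shared by both, and no group fed without a fast is among them.

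Each cell barcode ended in a number from 1 to 4, and nothing in the labels tied a number to a library or to fasted or refed mice. Fasted and refed cells therefore cannot be told apart, and the cells were treated as 1 sample with no replicate. Values are given for each barcode number so that their spread can be seen. Intervals are exact at the 95% level, Poisson for levels and Clopper-Pearson for shares, and cover counting error only. Beside a count of 0, the limit given is the value that 3 counts would have, which is lower than the upper end of the exact interval. OPCs held a median of 4041 UMIs (range 1849 to 9138) and 2267 genes, close to the median of 3837 UMIs over all cells. Levels are UMIs of a gene per 1e+06 UMIs of the group of cells (CPM), which are not scaled by transcript length because each captured transcript is counted once at its 3' end. A fold is the ratio of 2 CPM values after 10 CPM was added to both.

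OPCs made up 98 of 1642, 80 of 1493, 53 of 1359 and 68 of 1488 cells of barcode numbers 1 to 4. These are 5.97% (4.87% to 7.23%), 5.36% (4.27% to 6.62%), 3.90% (2.93% to 5.07%) and 4.57% (3.57% to 5.76%) of the cells. Numbers 1 and 3 were highest and lowest, and the intervals of number 1 and of number 3 overlapped only narrowly. Of the 1107 cells of the oligodendrocyte lineage, 27.0% were OPCs, and by barcode number the share was 31.0%, 33.1%, 19.6% and 24.5%.

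596 cells had a Pdgfra UMI, and 310 of them reached a sum of 5 over the 4 OPC genes. The limits on Bmp4 and Enpp6, on Dcn and on the neuronal genes then left 306, 303 and 299 cells. Just outside the gate, 2 cells had a sum of 3 and 2 a sum of 4, and just inside it 7 cells had a sum of 5 and 4 a sum of 6. The median sum among OPCs was 13 and the highest was 30. Bmp4 and Enpp6 together were at 0 UMIs in 289 OPCs, at 1 in 9 and at 2 in 1, and no cell that met the other limits held 3 or 4. Unsupervised clustering of all cells gave an OPC-like cluster of 307 cells, of which 293 were in the gate. Of the 14 cluster cells outside it, 11 had no Pdgfra UMI. The remaining OPCs of the gate lay in other clusters, 3 among astrocyte-like cells, 2 among microglia-like cells and 1 among cells that resemble differentiating OPCs (diffOPCs). 6 OPCs were called doublets by Scrublet, of 50 such calls in all, and 1 OPC carried a barcode sequence that was also present under a second number, of 21 such sequences.

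The gate itself raised 4 of the 5 OPC markers, so only Matn4 bears on the label. C1ql1, which encodes a secreted C1q-like protein (ENSMUSG00000045532, chr11:102939264-102946688, minus strand), was at 1366 CPM (1301 to 1433) in OPCs and at 19.1 CPM in all other cells. By barcode number it was at 1299, 1490.1, 1333 and 1347 CPM. Pdgfra, the receptor for PDGF-A that drives OPC division (ENSMUSG00000029231, chr5:75152292-75198215, plus strand), was at 875, 945, 924 and 1024 CPM and at 15.6 CPM in other cells. Pdgfra is also used by fibroblasts, and cells that resemble vascular and leptomeningeal cells (VLMCs) held 341 CPM, the highest level outside the OPCs. Cspg4, the NG2 proteoglycan that pericytes share (ENSMUSG00000032911, chr9:56865033-56899870, plus strand), was at 312, 356, 269 and 259 CPM, beside 102 CPM in mural-like cells.

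Lhfpl3, a tetraspan membrane protein (ENSMUSG00000106379, chr5:22746059-23275597, plus strand), was at 729, 756, 781 and 739 CPM. Matn4, the matrix protein matrilin-4 (ENSMUSG00000016995, chr2:164389393-164405160, minus strand), is the only 1 of the 5 markers that the gate did not use. It was at 884, 843, 817 and 889 CPM, and 92.98% of OPCs held a UMI against 1.99% of microglia-like cells, which lack it. None of the 5 markers spread by more than a ratio of 1.4 between barcode numbers. Coordinates are those of GENCODE vM21 on GRCm38.

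Markers of other cell types were low in OPCs, but the gate itself limited some of them. These were Dcn of the VLMC markers and Snap25, Syt1, Stmn2 and Stmn3 of the neuronal markers. The VLMC and neuronal sums are therefore not independent of the gate. The 6 microglial markers summed to 369 CPM (130 to 724 CPM by barcode number), 1.09% of their level in microglia-like cells. The 5 VLMC, 5 endothelial, 5 ependymal and 6 mural markers summed to 67.5, 119, 55.3 and 15.5 CPM, and 3 of 5 macrophage markers were at 0. The 8 tanycyte markers summed to 1488 CPM, 9.64% of their own type, with Dio2, Adm and Nnat above 10%. The 6 astrocyte markers summed to 553 CPM, 5.43% of their level in astrocyte-like cells. The 6 neuronal markers reached 17.5% of the neuron-like level, with Snap25, Stmn3 and Meg3 above 10% of it. Stmn3, a regulator of microtubules, was at 456 CPM in OPCs and in 82.6% of them, against 10.7% of microglia-like cells, while Stmn2 was at 5.69 CPM. The part of other cell types in any single level was not tested.

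The 250 bases before the start of 3 OPC genes from RefSeq (GRCm38.p6, plus strand, 5′ to 3′) are shown because they differ in whether they hold sequence words of the factors described below. Capitals mark CAGCTG, a word of basic helix-loop-helix factors, and ACAAT or its complement ATTGT, the core word of Sox factors. Pdgfra lies at chr5:75152001-75152250, Lhfpl3 at chr5:22745804-22746053 and Olig2 at chr16:91225300-91225549.
Pdgfra: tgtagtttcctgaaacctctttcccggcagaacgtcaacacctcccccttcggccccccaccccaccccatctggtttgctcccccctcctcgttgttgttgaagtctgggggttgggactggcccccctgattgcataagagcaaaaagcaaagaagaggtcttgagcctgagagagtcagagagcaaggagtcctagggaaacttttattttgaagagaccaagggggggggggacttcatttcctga
Lhfpl3: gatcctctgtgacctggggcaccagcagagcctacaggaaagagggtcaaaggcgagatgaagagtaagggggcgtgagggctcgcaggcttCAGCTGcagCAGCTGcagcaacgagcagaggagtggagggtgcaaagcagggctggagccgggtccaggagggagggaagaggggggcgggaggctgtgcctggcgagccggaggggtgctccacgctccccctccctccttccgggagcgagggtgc
Olig2: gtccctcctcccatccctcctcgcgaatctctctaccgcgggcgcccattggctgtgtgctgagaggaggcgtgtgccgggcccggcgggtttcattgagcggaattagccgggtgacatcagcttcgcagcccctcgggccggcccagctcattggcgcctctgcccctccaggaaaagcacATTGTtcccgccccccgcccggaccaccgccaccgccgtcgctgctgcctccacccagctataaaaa
Pdgfra held none of these words, Lhfpl3 held CAGCTG 2 times and Olig2 held ACAAT once, on the other strand. CAGCTG reads the same on both strands, and the marked words do not overlap. Among the genes at least 4-fold higher in OPCs, described next, 136 matched the table. CAGCTG was in 16 of the 136 (11.8%) and in 11.9% of the promoters of all tested genes, and in 12.8% of all 27025 promoters. ACAAT on either strand was in 14.7% of the 136, in 17.8% of tested genes and in 28.3% of all promoters. CATATG, another word of these factors that also reads the same on both strands, was in 1 of the 136, in 1.44% of tested genes and in 3.47% of all promoters. A match is a description of letters and not of a bound site.

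Of 13953 genes with at least 50 UMIs in all, 190 were at least 4-fold higher in OPCs than in all other cells (1.36%), and 286 were at least 4-fold lower (2.05%). Of the 190, 161 were highest in OPCs among 13 cell types, and 25 were at least 4-fold over the next type. For 12 of the 25 leading genes outside the gate the next type was the diffOPC-like cells. Outside the gate genes, Matn4 led, followed by Nxph1, a ligand of neurexins, at 551, 443, 561 and 405 CPM against 12.2 CPM in other cells. Ccnd1, the cyclin that carries cells from G1 towards S phase, was at 566, 663, 489 and 623 CPM against 19.5 CPM, and the next type was macrophage-like cells at 115 CPM.

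Cdo1, which degrades cysteine on the way to taurine, was at 513, 533, 547 and 548 CPM and at 41.5 CPM in ependymocyte-like cells, the next type, a fold of 10.5. Sapcd2, which takes part in orienting the spindle, was at 199, 183, 126 and 146 CPM against 1.53 CPM in other cells and no UMI in diffOPC-like cells. Pcdh15, a cadherin best known from hair cells, was at 403, 418, 417 and 315 CPM against 10.8 CPM. All 3 were above other cells under each barcode number.

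Ppp1r14b, an inhibitor of protein phosphatase 1, was at 780.02 CPM (731 to 831) and 16.1-fold higher than in other cells. Vxn, a factor of neuronal differentiation, Qpct, which cyclises N-terminal glutamine, and Traf4, an adaptor of receptor signalling, were at 519.7, 852 and 484 CPM. C1ql2, a relative of C1ql1, was at 235 CPM against 11.5 CPM, and the sorting nexin Snx22 was at 233 CPM against 7.199 CPM. Brinp3, Plpp4 and Inka2 were 11.4-fold, 12.4-fold and 11.8-fold higher. All 25 leading genes outside the gate were highest in OPCs among the 13 types.

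**Figure D1:**
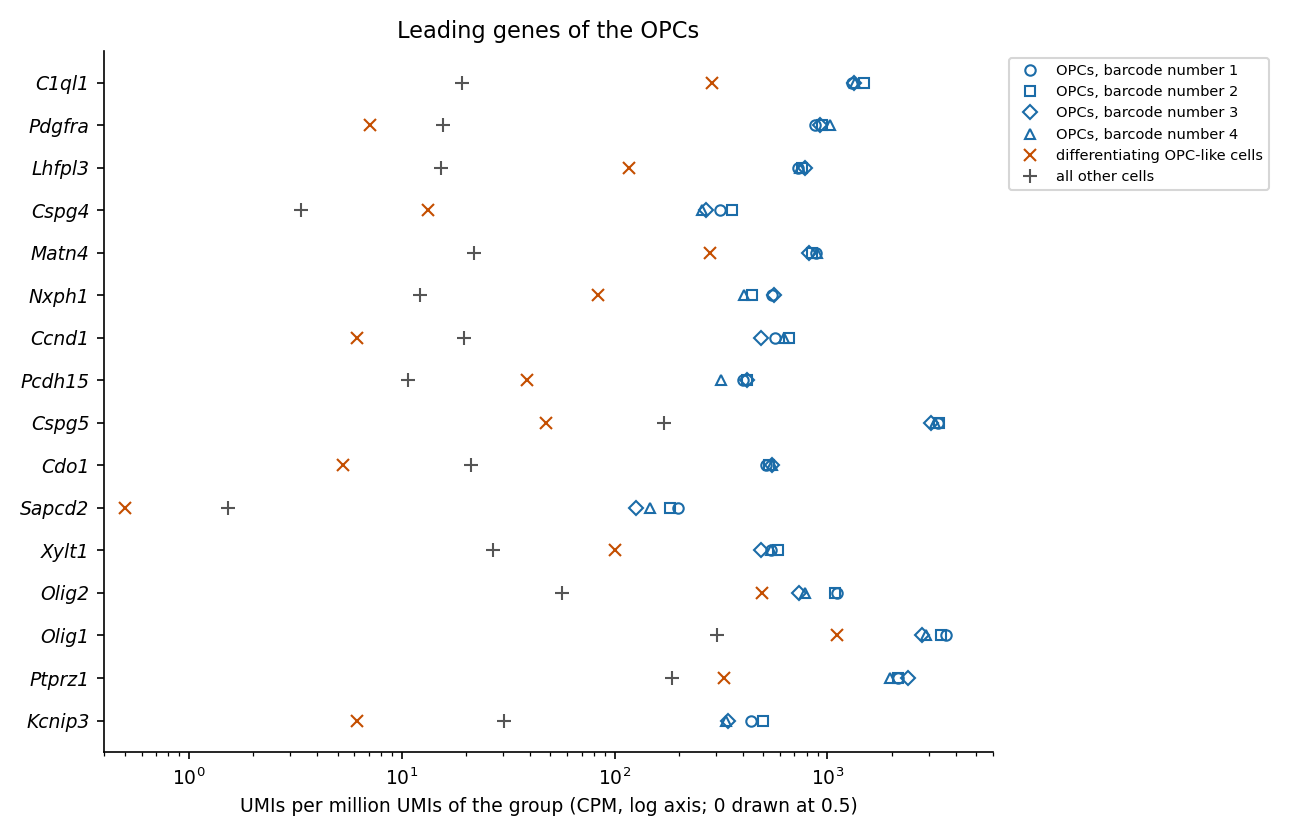
CPM on a log axis of 16 leading genes in OPCs of barcode numbers 1 to 4 (blue open symbols), in the 128 diffOPC-like cells (crosses) and in all other cells (plus signs). The 4 OPC symbols lie close together for each gene, and for all 16 they lie to the right of both comparison groups; Olig2 and Olig1 have the smallest gap to diffOPC-like cells.

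A list of 30 genes known from OPCs outside the gate had a median log2 fold of 3.0, against 0.07 over all tested genes. All 30 were tested, and 24 were at least 4-fold higher (1.36% over all tested genes). Besides those above they include Fabp7, a fatty acid binding protein of glial progenitors (1519 CPM, 11.2-fold), Emid1 (165 CPM, 13.2-fold), the engulfment receptor family member Megf11 (118 CPM, 8.72-fold) and the endocytic adaptor Epn2 (535 CPM, 7.99-fold). Susd5 and the retinoid binding protein gene Rlbp1 were 7.99-fold and 6.02-fold higher. The 6 that did not reach 4-fold were S100a16, Lrrn1, Bcan, Ednrb, Pmel and Snhg18, from a log2 of 1.94 to -0.23.

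Transcription factors of the lineage gave 7 of 32 at least 4-fold higher, against 1.36% of all tested genes. Olig1, Olig2 and Sox10 of the 7 are also in the list of OPC genes above. Olig2, which specifies the lineage, was at 1112, 1087, 731 and 780.2 CPM in OPCs and at 56.7 CPM in other cells. Olig1, its paralog, was at 3590.5, 3398, 2778 and 2903 CPM against 302 CPM. Both were higher under numbers 1 and 2 than under 3 and 4. Sox10, which is kept from OPCs to mature oligodendrocytes (MOLs), was at 379, 362, 408 and 390.1 CPM and 6.39-fold higher, and diffOPC-like cells held 385 CPM.

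Etv4 and Etv5, which lie downstream of growth factor receptors, were at 136 and 159 CPM against 5.096 and 15.9 CPM, with 2 and 1 UMIs in diffOPC-like cells. Sox6, which restrains terminal differentiation, was 5.05-fold higher, at 186 CPM, and diffOPC-like cells held 233 CPM. Sox9 and Id4, which are abundant in astrocytes, were the 2 of the list that were at least 4-fold lower, at 13.8 and 13.8 CPM.

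Hes5, an effector of Notch that holds progenitors undifferentiated, was at 652, 449, 812 and 889 CPM in OPCs, against 17.7 CPM in diffOPC-like and 1094 CPM in astrocyte-like cells. Nrarp, another Notch target, was at 129, 170.4, 166 and 214 CPM, with 1 UMI in diffOPC-like cells. Of the receptors, Notch1 was at 73.2 CPM, and Notch2 was 1 of the genes at least 4-fold lower, with 2 UMIs in all OPCs. Hes5 was lowest under number 2 and highest under number 4, and in both it was far over the diffOPC-like level.

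Among 27 tested receptors of growth factors and related signals, the gate gene Pdgfra was the only 1 at least 4-fold higher. The share over all tested genes was 1.36%, so this count says little about the list. Ntrk2, the receptor of BDNF, was at 355 CPM but lower than in other cells (786 CPM). Ntrk3, the receptor of neurotrophin-3, was at 132, 121, 108 and 97.5 CPM and 2.89-fold higher. Fgfr1, Fgfr2 and Fgfr3 were at 36.6, 7.32 and 36.6 CPM. Erbb3 and Erbb4, receptors of neuregulin, were at 27.7 and 32.5 CPM, and Met and Tgfbr2 had no UMI (3 counts are 2.44 CPM).

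Receptors of glutamate, through which neurons signal to OPCs, gave 5 of 22 at least 4-fold higher, against 1.36% of all tested genes. Cacng4 of the 5 is also in the list of OPC genes above. The AMPA receptor subunit Gria3 was at 163, 226, 197 and 244 CPM against 15.5 CPM in other cells. Cacng4, an auxiliary subunit of AMPA receptors, was at 352, 338, 309.6 and 300.1 CPM, and the metabotropic receptor Grm5 at 244, 245, 247 and 199 CPM. All 3 were above every other cell type, with 53.97, 61.9 and 84.7 CPM in the next one.

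Gria4 and the NMDA receptor subunit Grin3a were 4.39-fold and 4.02-fold higher, at 89.5 and 87.8 CPM. Gria2, which makes AMPA receptors impermeable to calcium, was at 628, 644, 659.6 and 758 CPM and in 93.3% of OPCs against 6.203% of microglia-like cells. Its level was about that of diffOPC-like cells (644 CPM). Grin2b, a subunit of neuronal NMDA receptors, was at 1.63 CPM from 2 UMIs and at least 4-fold lower. None of 14 tested receptors and transporters of GABA was at least 4-fold higher, and the astrocyte transporter Slc6a11 was lower at 50.4 CPM. Shares over all tested genes were 1.36% higher and 2.05% lower, so counts this small say little about the list. Gabbr1, a subunit of the GABA-B receptor, was at 314 CPM, 1.31-fold over other cells.

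Against 1.36% of all tested genes, 2 of 29 voltage-gated and related channel genes, Kcnip3 and Kcnd2, were at least 4-fold higher. They encode a calcium-binding partner and the pore, Kv4.2, of A-type potassium channels. Kcnip3 was at 439, 499, 341 and 334 CPM against 30.2 CPM in other cells and 6.19 CPM in diffOPC-like cells, and Kcnd2 was at 163, 158, 157 and 191 CPM with 3 UMIs in diffOPC-like cells. The sodium channel Scn3a was at 79.7 CPM, 2.54-fold over other cells, and the inward rectifier Kcnj10 at 244 CPM, below the 369 CPM of astrocyte-like cells.

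Of 25 genes of synaptic adhesion, 5 were at least 4-fold higher (1.36% over all tested genes) and the median log2 fold was 1.00. Cntn1, an adhesion protein of axons and glia, was at 872, 917, 996 and 972 CPM against 89.5 CPM. Nlgn3, a postsynaptic neuroligin whose shed form acts on glial precursors, was at 561, 551, 458 and 476 CPM against 80.1 CPM. Lrrtm3, Opcml and Dscam were 7.602-fold, 6.202-fold and 5.15-fold higher. Opcml, at 393 CPM, was higher still in diffOPC-like cells (814 CPM). Cntn1, Opcml and Dscam of the 5 are also in the list of OPC genes above.

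After the OPC list, matrix genes gave the most members at least 4-fold higher, 12 of 31, while 3 were lower. Over all tested genes the shares were 1.36% and 2.05%, and 1 of the 12 is Cspg4, which the gate used. The 2 lists overlap, as Tnr, Vcan, Ptprz1, Xylt1, Sulf2 and Matn4 of the 12 are also in the OPC list. Cspg5, the proteoglycan neuroglycan C, was at 3305, 3358, 3060.3 and 3192 CPM in OPCs, against 47.8 CPM in diffOPC-like and 456 CPM in astrocyte-like cells. Ptprz1, a receptor phosphatase that also occurs as a chondroitin sulfate proteoglycan, was at 2136, 2147, 2392 and 1977 CPM against 186 CPM. Its ligand Ptn was at 3461 CPM, 2.07-fold over other cells and below the tanycyte-like level of 4134 CPM.

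Xylt1, which starts chondroitin sulfate chains, was at 544, 586, 489 and 540.2 CPM (15.01-fold), and Chst2, a sulfotransferase, was at 443, 586, 233 and 304 CPM (6.37-fold). Vcan and Ncan, proteoglycans of perineuronal nets, and Tnr, a crosslinker of the nets, were at 304, 259 and 512 CPM. These were 8.08-fold, 5.28-fold and 5.93-fold over other cells. Tnr was higher still in diffOPC-like cells (1459 CPM). Of the other net proteoglycans, Bcan was 3.02-fold higher, at 935 CPM against 1172 CPM in astrocyte-like cells. Acan had 12 UMIs (9.76 CPM), too few to be tested. The sulfatase Sulf2 and the membrane proteases Mmp15 and Mmp16 were 6.45-fold, 6.89-fold and 11.5-fold higher. Adamts4, a protease of these proteoglycans, had 6 UMIs in OPCs (4.88 CPM) against 249 CPM in diffOPC-like cells, and was lower together with Hapln2 and Lum. The link protein gene Hapln1 had no UMI.

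Receptors of hormones and metabolic signals were mostly scarce. Of 43 such genes, 8 had no UMI in OPCs (Ghsr, Glp1r, Gipr, Gcgr, Mc3r, Mc4r, Npy5r and Gfral), where 3 counts are 2.44 CPM, and the leptin receptor Lepr had 3 UMIs. Insr and Igf1r, the receptors of insulin and IGF1, were at 20.3 and 38.2 CPM against 16.1 and 37.5 CPM in other cells. Igf1r was at 21.6, 24.8, 58.3 and 63.8 CPM by barcode number. The growth hormone receptor Ghr was at 25.2 CPM and the adiponectin receptors Adipor1 and Adipor2 at 62.6 and 34.98 CPM.

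Thra, the thyroid hormone receptor that times OPC differentiation, was at 312, 309.8, 274 and 315 CPM, near other cells (322 CPM) and below diffOPC-like cells (913 CPM). The glucocorticoid receptor Nr3c1 was at 131 CPM, 1.31-fold over other cells. Of the 35 tested, the adenosine receptor Adora1 was the only 1 at least 4-fold higher, at 161, 192, 130.1 and 139 CPM against 26.8 CPM. Lpar1, a receptor of lysophosphatidic acid found in MOLs, was the only 1 lower, with 5 UMIs. Over all tested genes 1.36% were higher and 2.05% lower, so these counts do not set the list apart. Ednrb, the endothelin receptor, was at 204, 263, 305 and 289 CPM and 8.85 CPM in diffOPC-like cells.

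**Figure D2:**
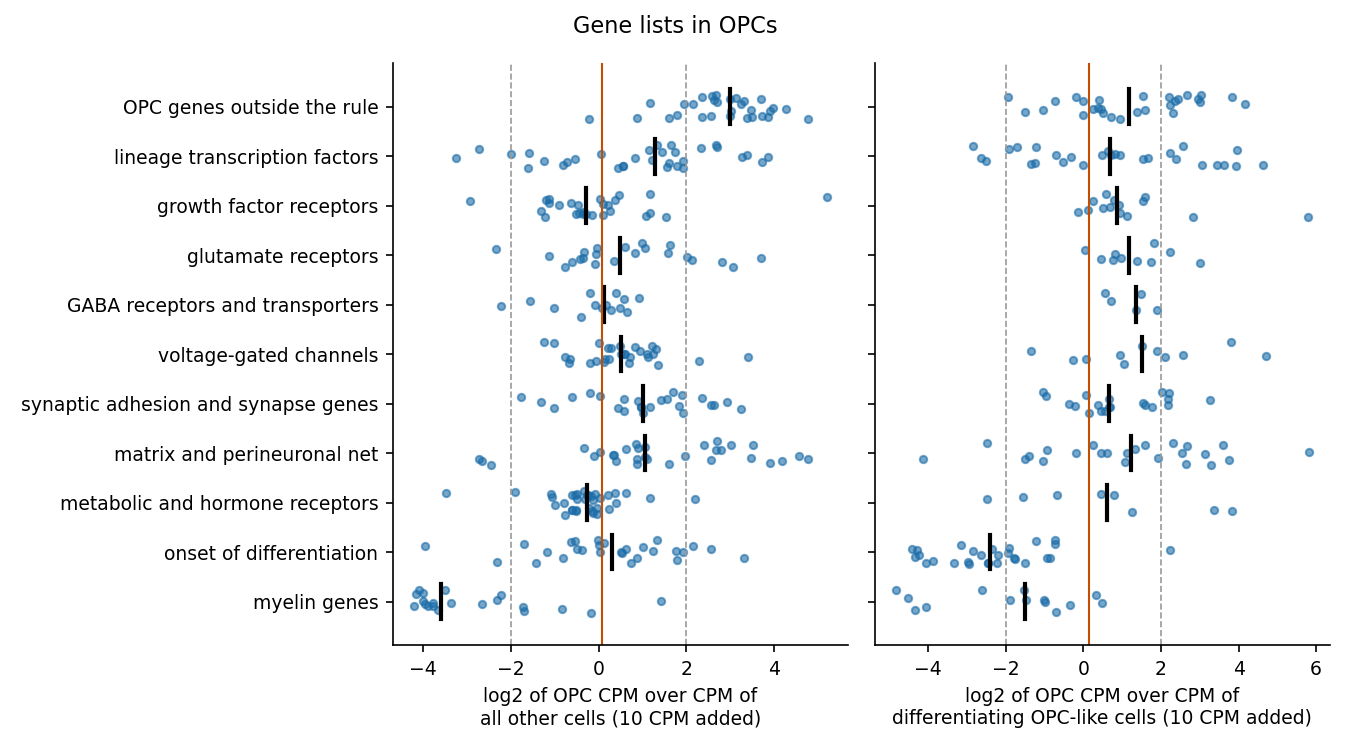
log2 of OPC CPM over all other cells (left) and over diffOPC-like cells (right), with 10 CPM added, for the tested genes of 11 lists; each point is a gene, black bars are list medians, the orange line is the median of all tested genes (0.07 left, 0.16 right) and dashed lines mark 4-fold. The OPC list lies furthest to the right against other cells (median 3.0), and the onset and myelin lists lie to the left against diffOPC-like cells (medians -2.40 and -1.50).

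The 128 diffOPC-like cells, which come from a cluster with Bmp4, Enpp6, Fyn and Tcf7l2, had a median of 8726.5 UMIs, more than OPCs. Of 6844 genes with at least 50 UMIs in both groups together, 274 were at least 4-fold higher in OPCs (4.0%) and 141 were at least 4-fold lower (2.06%). The count of higher genes was 105 when cells were thinned to 1000 UMIs. The gate fixes Bmp4 and Enpp6 to be low in OPCs and Pdgfra to be present. Beside Pdgfra, the genes furthest above diffOPC-like cells were Cspg5, Ccnd1, Cdo1, Kcnip3 and Hes5, at 56.4-fold, 37.03-fold, 35.4-fold, 26.2-fold and 24.9-fold. C1ql2, Sapcd2, Nrarp, Etv5 and Fam19a1, a secreted protein gene at 181 CPM in OPCs, had at most 3 UMIs in diffOPC-like cells, and Gm3764, an unannotated transcript, was at 508 CPM against 18.6 CPM. 89 of the 190 genes that led over all other cells were also at least 4-fold over diffOPC-like cells, and none was 4-fold under them.

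A list of 30 genes at the onset of differentiation was ordered the other way. 17 of 28 tested were at least 4-fold lower in OPCs than in diffOPC-like cells, 1 was higher, and the median log2 fold was -2.40 against 0.16 over all tested genes. Over all tested genes 2.06% were lower and 4.0% higher. Gpr17, Neu4, Bcas1, Fyn, Tcf7l2 and Itpr2 of the list were also markers that named the diffOPC-like cluster. The count is therefore not independent of that naming. Fyn, a kinase of myelinating processes, was at 144, 173, 202 and 150.05 CPM in OPCs and at 3262 CPM in diffOPC-like cells. Tcf7l2, a Wnt effector of new oligodendrocytes, was at 79.7 against 637 CPM, Bcas1 at 89.5 against 988 CPM, and the deacetylase Sirt2 at 477 against 7111 CPM. Myrf, the regulator of myelin genes, was at 13.01 against 132 CPM. Sox11, a factor of immature cells, was the 1 that was higher, at 218, 245, 346 and 218 CPM against 45.1 CPM. Its relative Sox4 was at 271, 273, 363 and 484 CPM, below the 1286 CPM of diffOPC-like cells. Outside the list, Epb41l2, Chn2 and Fkbp15 were among the 12 lowest against diffOPC-like cells, at 19.5, 19.5 and 17.9 CPM against 621, 586 and 513 CPM.

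Part of this programme was already above background in OPCs. Gpr17, a receptor of committed precursors, was at 285, 307, 233 and 210.1 CPM and in 60.9% of OPCs against 1.99% of microglia-like cells (median 3080 UMIs). Neu4, a sialidase, was at 376, 384, 453 and 311 CPM and in 71.9% against 0.496%. Bcas1 and Fyn were in 29.8% and 45.8% of OPCs against 1.74% and 3.97% of microglia-like cells. Nkx2-2, a factor of differentiation, was in 33.4% against 0.744%. Gpr17 was spread over many OPCs rather than a subgroup, as 4 OPCs held at least 5 UMIs and 1 held 16.

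The 10 OPCs with 1 or 2 UMIs of Bmp4 or Enpp6 held 618 CPM (411 to 893) of Gpr17, against 252 CPM (224 to 282) in the 289 with none. That gap rests on 1 cell, which clustered with the diffOPC-like cells. Without it the level was 297 CPM (153 to 519), and the intervals overlapped. Neu4 and Sox4 were at 486 and 463 CPM in the 10 cells and at 374 and 329 CPM in the 289, with overlapping intervals.

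Of 20 myelin genes, 15 were at least 4-fold lower than in all other cells (2.05% over all tested genes) and none was higher. Mobp, Mog and Mal, proteins of compact or mature myelin, were at 56.1, 21.96 and 32.5 CPM in OPCs and at 60.2, 14.9 and 23.04 CPM in microglia-like cells. The microglia-like level lay within the OPC interval for Mobp and Mog and just under it for Mal (23.2 to 44.3 CPM). In MOL-like cells they were at 4238, 2259 and 4568 CPM.

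Gjc3, a glial connexin, was at 419, 341, 337 and 319 CPM in OPCs and 6.69 CPM in microglia-like cells, and it reached 76.2% of the MOL-like level. Ugt8a, the enzyme that makes galactosylceramide, was at 185, 149, 171 and 154 CPM against 3.72 CPM and in 50.2% of OPCs against 1.24%. Tspan2 and the connexin Gjb1 were at 69.1 and 33.3 CPM against 9.66 and 2.97 CPM. None of these 4 was higher under both numbers 3 and 4 than under 1 and 2, whereas Mobp and Mal were. Mobp was at 38.3, 21.7, 85.3 and 101 CPM and Mal at 19.2, 12.4, 62.8 and 52.5 CPM.

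**Figure D3:**
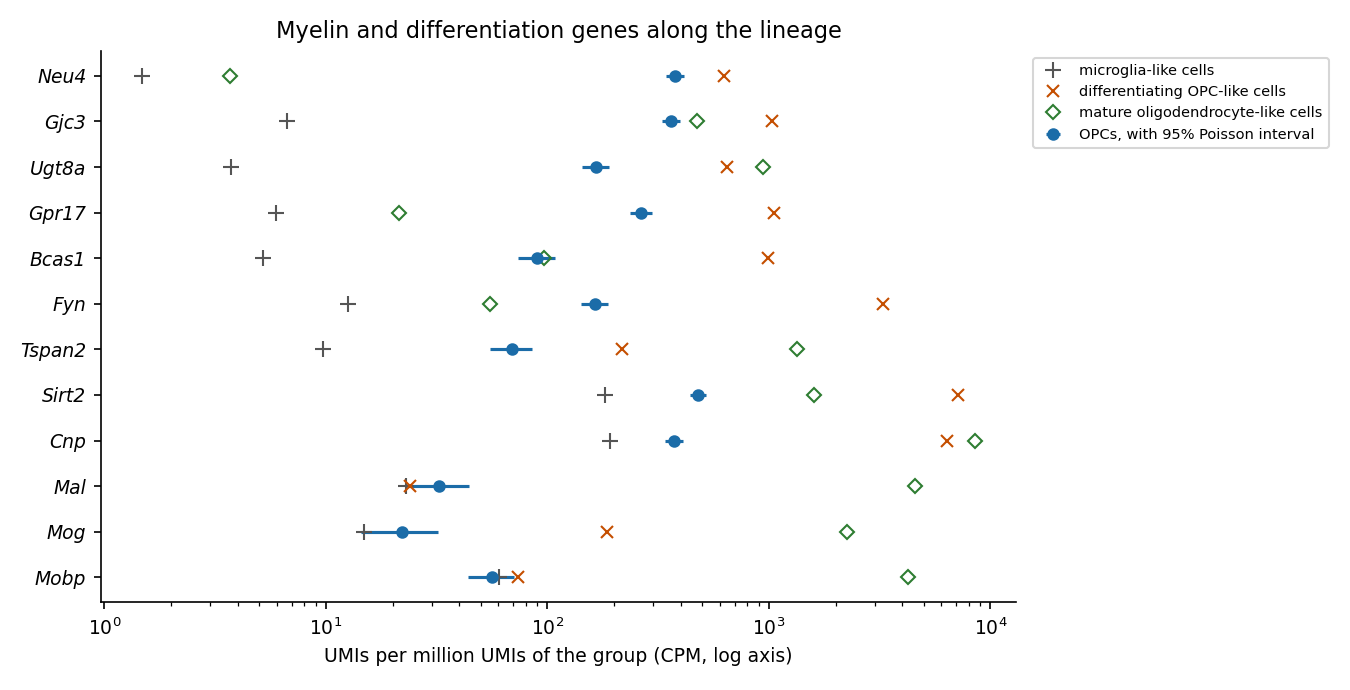
CPM on a log axis of 12 myelin and differentiation genes in OPCs (points with exact Poisson intervals), microglia-like cells (plus signs), diffOPC-like cells (crosses) and MOL-like cells (diamonds). For Mobp, Mog and Mal the OPC point lies next to the microglia-like level, and for Neu4, Gjc3, Ugt8a, Gpr17 and Bcas1 it lies more than 10 times above it.

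A minority of OPCs held many transcripts of cell division. Over 33 genes of G2 and M phase, 207 OPCs held no UMI, 60 held 1 and 11 held 2. 21 held at least 3, or 7.02% (4.40% to 10.5%), and by barcode number these were 7, 4, 5 and 5 cells. 11 of them held at least 10, or 3.68% (1.85% to 6.49%), and up to 242 UMIs, and no OPC held 8 or 9. These 11 cells held 87.6% of the 1016 UMIs of the list in OPCs. They were all in the OPC-like cluster, and none was called a doublet. They were 4, 1, 3 and 3 cells of barcode numbers 1 to 4.

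Depth differs between cell types, so cells were also thinned to 2000 UMIs, which left out 1 OPC and 42 microglia-like cells. Then 15 of 298 OPCs (5.03%, 2.84% to 8.17%) held at least 3 UMIs of the list, against 1 of 361 microglia-like cells (0.277%), 1 of 1279 astrocyte-like cells (0.0782%) and none of 128 diffOPC-like cells (upper end of the exact interval 2.84%). Before thinning the shares were 0.744% in microglia-like, 0.0704% in astrocyte-like and 14.1% in diffOPC-like cells. MOL-like and ependymocyte-like cells were at 24.6% and 39.5% before thinning and at 2.41% and 9.0% after it. In MOL-like cells 1 gene of the list, Anln, was at 195 CPM, while the whole list summed to 264 CPM. The MOL-like share is therefore mostly not a count of dividing cells, and the part of single genes in the other shares was not tested. At a minimum of 10 UMIs, 8 of the 298 thinned OPCs remained (2.68%) and none of the MOL-like or ependymocyte-like cells.

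The genes of the list that stood out were Pbk, Ube2c, Ccnb1, Top2a and Birc5, which act in mitosis and chromosome separation. They were the 5 of 21 tested that were at least 4-fold higher in OPCs than in all other cells (1.36% over all tested genes). The list has 33 genes, and a gene could reach the minimum of 50 UMIs through OPCs alone, as Ccnb1 did with 60. Of the UMIs of Ccnb1 and of Top2a in OPCs, 75% were in 3 cells. The count therefore describes few cells and is no support for the list as a whole. Pbk was at 79.1, 83.6, 89.7 and 30.01 CPM by barcode number and Top2a at 28.8, 46.5, 144 and 3.75 CPM, and number 3 was highest for both. None of 23 tested S phase genes was at least 4-fold higher, a count near the share over all tested genes. Rrm2, a subunit of ribonucleotide reductase, was the closest at 59.9, 46.5, 49.4 and 22.5 CPM and 3.98-fold. The 11 cells held 1 to 61 UMIs of the S phase list, with a median of 7, and 4 of them held over 30.

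**Figure D4:**
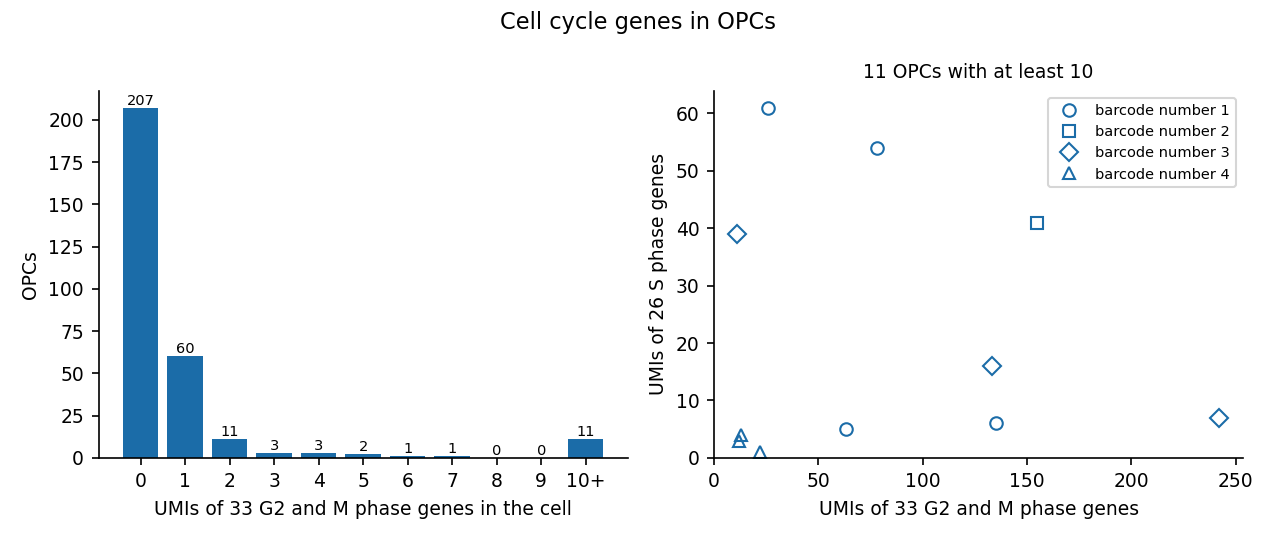
Left, number of OPCs by their UMIs of 33 G2 and M phase genes; right, UMIs of 26 S phase genes against UMIs of the G2 and M phase genes in the 11 OPCs with at least 10, by barcode number. Most OPCs are at 0 (207 cells), and the 11 cells reach from 11 to 242 UMIs and come from all 4 barcode numbers.

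The 11 cells held Pdgfra at 1212 CPM (952 to 1522) against 909.8 CPM (855 to 967) in the 278 OPCs with under 3 UMIs of the list. C1ql1 was at 393 CPM (252 to 585) against 1437 CPM (1368 to 1509), with 0 to 5 UMIs a cell and a median of 2. Neu4 was at 81.9 CPM (26.6 to 191) against 401 CPM (365 to 440.01), and Hes5 at 213 CPM (113 to 364) against 706 CPM (658 to 757). Matn4 was at 442 CPM (291 to 643) against 892 CPM (838 to 949), and Olig1 at 1998 CPM (1660 to 2386) against 3311 CPM (3206 to 3419). The intervals of C1ql1, Neu4, Hes5, Matn4 and Olig1 did not overlap between the groups, but they treat UMIs of 1 cell as independent. Lhfpl3 was at 786 CPM against 748 CPM, with overlapping intervals. Ccnd1 was higher in the 11, at 1032 CPM (793 to 1320.3) against 556 CPM (514 to 602). Kpna2, an importin, had 41 UMIs in the 11 cells, with a median of 1 and up to 20 in a single cell, and 34 in the 278. The cyclin-dependent kinase inhibitor Cdkn1b had 12 and 40 UMIs. Hmgb2, Cks2 and the histone gene H2afz, which are linked to division, were at 2506, 917 and 4619 CPM against 69.98, 3.54 and 543 CPM.

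Over 4213 genes with a mean of at least 0.2 UMIs, the variance between OPCs was 1.03 times that of Poisson counting at each cell's depth in the median, and at least 2 times in 71 (1.69%). Pdgfra, Lhfpl3, Matn4 and Cspg4 had ratios of 1.03, 0.959, 1.17 and 1.18. Sox10 was at 1.19, Neu4 at 1.56, Cspg5 at 1.63 and C1ql1 at 1.79. The gate sets a lower limit on Pdgfra and on the sum of Pdgfra, Cspg4, C1ql1 and Lhfpl3.

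The highest ratios fell into 3 kinds. Ube2c, Ccnb1, Pbk, Top2a and Hmgb2 ranged from 11.99 to 15.04, and 64.5% to 100% of their UMIs were in 11 OPCs. Ctss, C1qa, C1qb and C1qc, genes of microglia, ranged from 18.4 to 24.3, and 3 OPCs held 55.6% to 68.8% of their UMIs. Their ratios were 0.936 to 1.12 over the 293 OPCs of the OPC-like cluster. Cst3 and Selenop fell likewise, from 21.6 to 1.30 and from 9.09 to 2.31. Malat1, a nuclear noncoding RNA, and Actb, cytoplasmic actin, had ratios of 53.8 and 30.3 and kept them in the cluster. Malat1 ran from 11 to 671 UMIs a cell, with a median of 271, and Actb from 1 to 206 with a median of 12.

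Among genes of the lineage, Hes5 varied most, with a ratio of 3.67. It was in 73.9% of OPCs, with a median of 2 UMIs and a maximum of 15. Id2, an inhibitor of basic helix-loop-helix factors, was at 2.21 and Olig1 at 2.05, while Gpr17 was at 1.90 and fell to 1.30 without the OPCs outside the cluster. Apoe, the lipid carrier that OPCs share with astrocytes, ran from 4 to 160 UMIs (ratio 9.18, and 4.89 in the cluster). Over the 293 cluster cells, 54 genes stayed at a ratio of at least 2.

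Between barcode numbers, 2629 genes had at least 100 UMIs in OPCs, and for 76 of them (2.89%) the highest number was at least 2-fold over the lowest. The median ratio was 1.32. In all other cells the same genes had a median ratio of 1.14, and 11 reached 2, of which 7 were among the 76. OPCs of 1 number held 222851 to 417217 UMIs, far fewer than the other cells, so their ratios carry more counting error. Whether a difference between numbers comes from mice, feeding state or library cannot be told apart.

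Id2 was at 321, 309.8, 94.2 and 128 CPM in OPCs, and at 236, 302, 183 and 197 CPM in all other cells. Its intervals were 269 to 380 CPM and 252 to 377 CPM under numbers 1 and 2, and 58.3 to 144 CPM and 88.3 to 178 CPM under numbers 3 and 4. The first pair did not overlap with the second. In other cells numbers 1 and 2 were also highest, and the ratio of highest to lowest was 1.62 against 3.18 in OPCs. Chst2 was at 443, 586, 233 and 304 CPM, with intervals under numbers 1 and 2 that did not overlap with those under 3 and 4. Other cells were at 47.9 to 68.6 CPM. Id2 was taken for its large ratio and Chst2 was picked here after its values were seen, so separate intervals are no test.

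Cldn11, a tight junction protein of myelin, was at 45.5, 49.6, 135 and 154 CPM in OPCs and from 1225 to 1686 CPM in other cells, where numbers 3 and 4 were also highest. The 9 MOL markers summed to 748, 756, 1243 and 1305 CPM in OPCs under numbers 1 to 4, and the part of free myelin RNA in the Cldn11 values was not tested. Lmcd1, a LIM domain protein that was picked after its values were seen, was at 146, 130.1, 53.8 and 150.05 CPM, lowest under number 3, and Gm20342 and Caml followed the same pattern with 26.9 and 35.9 CPM there. Hmgb2 was at 211, 158, 332 and 109 CPM, highest under number 3. By number, 4, 1, 3 and 3 OPCs held at least 10 UMIs of the G2 and M phase list. A link between the 2 was not tested. The microglial genes Ctss, C1qa, C1qb and C1qc differed by 3.45 to 4.94 times, and in the OPCs of the OPC-like cluster Ctss was at 24.8, 38.9, 26.9 and 27.0 CPM.

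**Figure D5:**
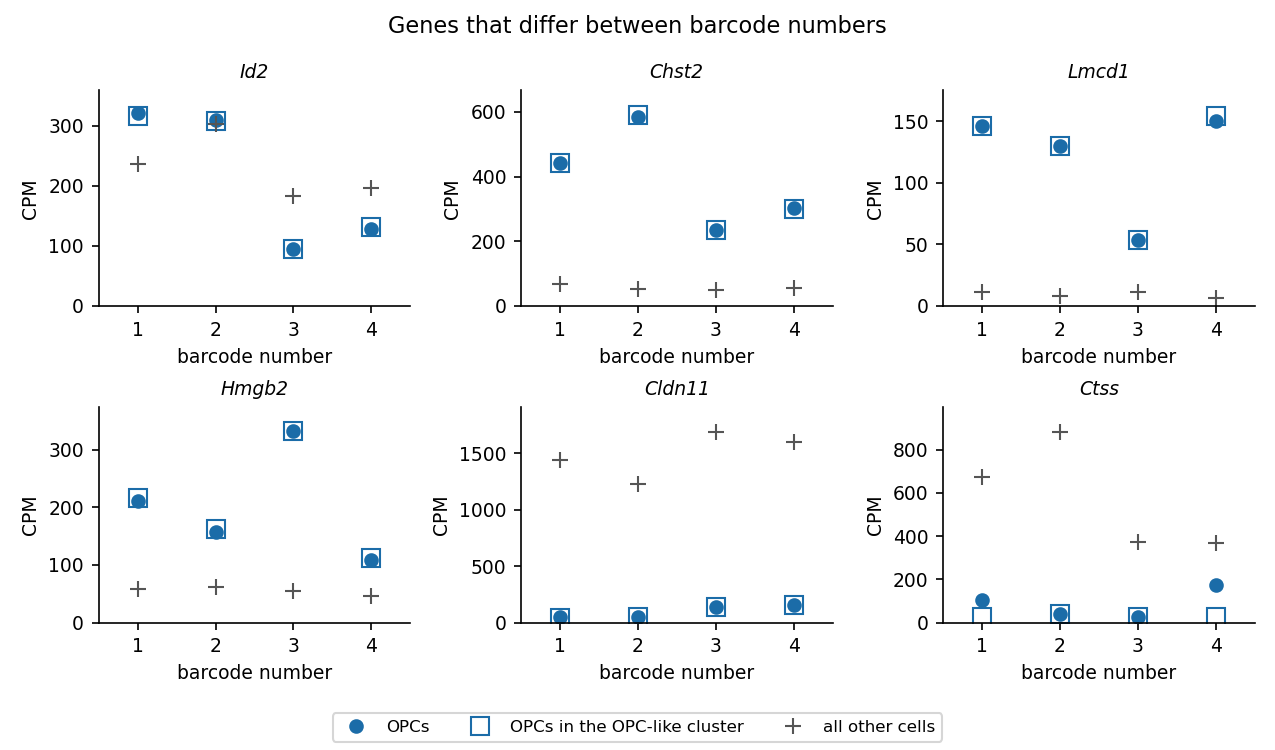
CPM of 6 genes by barcode number in OPCs (filled points), in the OPCs of the OPC-like cluster (open squares) and in all other cells (plus signs). Id2 and Chst2 are higher under numbers 1 and 2 and Cldn11 under 3 and 4, while the Ctss difference is absent from the OPCs of the cluster.

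The study names 11 genes for its OPCs, a list that was chosen on these cells and is not independent of them. Olig1, Olig2 and Gpr17 were at least 4-fold higher than in all other cells, and Cldn11 lower. Tspan15, a tetraspanin, was at 28.8, 43.4, 85.3 and 78.8 CPM, and Kpna2 at 33.6, 46.5, 166 and 45.01 CPM, highest under number 3. The peroxisomal import receptor Pex5 was at 14.4, 21.7, 53.8 and 52.5 CPM and Pmvk, of cholesterol synthesis, at 69.5, 61.96, 108 and 139 CPM. Kpna2, Tspan15 and Pex5 had 78, 66 and 39 UMIs in all OPCs, under the minimum of 100 UMIs for the comparison between numbers.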

How the data were processed

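Single-cell RNA-seq of the median eminence was deposited by the authors as 1 matrix of raw UMI counts, made with Cell Ranger 2.0 on mm10 (GRCm38) from 10x 3' libraries. It holds 5982 cells and 27998 genes, with 29288898 UMIs in all and no value that is not whole or is below 0. The counts were used as deposited, with no further filter on cells. OPCs were taken by the UMI limits given above. Other types came from clustering (Scanpy 1.11.5, 2000 variable genes, 30 principal components, 15 neighbours, Leiden resolution 1) and fixed markers. A cluster was left unnamed if its mean relative marker level (score) was under 0.3 or under 1.5 times that of the next type. The same held if under 3 of its markers stood out. The largest unnamed cluster, of 366 cells, scored 0.389 for astrocytes and 0.342 for tanycytes. The names are rebuilt here and may differ from those of the study. Scrublet calls were kept in, and cells without them served as an alternative.

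The cells, gene lists and comparisons were chosen with earlier results of these data known. Named genes were the markers, the list members at least 4-fold higher or lower, the 3 most abundant members of other lists, the 25 leading genes, the 12 highest and 12 lowest against diffOPC-like cells, the 15 most variable genes and the 12 with the largest ratio between barcode numbers. The remaining genes were picked with their values known, and 1 or more genes that the rule names are not reported here. Genes with at least 50 UMIs in both groups together were tested for a 4-fold difference in summed CPM, with 10 CPM added. With 1 pooled sample there was no test, p-value or replicate error, and PCR duplicates are collapsed by UMI. The scripts were tested on simulated counts. Motifs were searched in 250 bases before RefSeq starts.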

Additional observations from a re-analysis of the deposited data

How the results depend on the processing

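No paired analysis was possible because the matrix pools all libraries and no barcode number is tied to a sample record. Of 74 alternative values over 6 results, 58 kept their size and 16 moved. The 11 alternatives for the number and share of OPCs, which changed the gate, left out doublets or left out 1 barcode number, all kept it. Genes at least 4-fold higher than in all other cells were 190, and 418 with 1 CPM added, 58 with 50 CPM added and 882 at a limit of 2-fold. Against diffOPC-like cells they were 274, and 434 and 55 with 1 and 50 CPM added, 115 with at least 200 UMIs, 105 after thinning to 1000 UMIs and 853 at 2-fold. The share of OPCs with G2 and M phase UMIs was 7.02%, and 30.8% at 1 UMI or more and 3.68% at 10 or more, the last chosen after the data were seen. Genes with at least 2 times the Poisson variance were 71, and 47 with a mean of at least 0.5 UMIs, 150 at 1.5 times and 12 after thinning to 2000 UMIs. Genes that differed 2-fold between barcode numbers were 76, and 406 with at least 50 UMIs, 13 with 50 CPM added and 25 after thinning to 1000 UMIs. Leaving out any 1 barcode number moved none of the other 5 results, and was not run for the comparison between numbers. The causes of these shifts were not tested. In OPCs 3 counts are 2.44 CPM, the limit given beside a count of 0.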

Other observations

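Genes of antigen presentation and interferon response were low in OPCs. Of 19 tested, none was at least 4-fold higher than in all other cells and 4 were lower, namely Cd74, H2-Aa and H2-Ab1 of MHC class II and the complement inhibitor Serping1, which had 2 UMIs. The shares over all tested genes were 1.36% higher and 2.05% lower. Of the MHC class I genes, B2m was at 237, 260.2, 265 and 285 CPM by barcode number and H2-D1 at 242, 208, 197 and 150.05 CPM, against 431 and 265 CPM in other cells. Of 22 genes of cholesterol synthesis, none was at least 4-fold higher or lower than in other cells, nor was any of the 18 that were tested against diffOPC-like cells. Such counts are near the shares over all tested genes. The list had a median log2 fold of 0.09 against other cells, and Hmgcs1, an early enzyme of the pathway, was at 158, 177, 184 and 195 CPM.

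Immediate early and stress genes, which also respond to tissue dissociation, gave 3 of 26 at least 4-fold lower than in other cells (Btg2, Klf2 and Hspa1a) and none higher. Over all tested genes 2.05% were lower and 1.36% higher. Against diffOPC-like cells, 4 of 13 were at least 4-fold higher (4.0% over all tested genes), namely Jun, Jund, Ier2 and Dusp1. Jun was at 355, 350.1, 368 and 356 CPM in OPCs. Its level was 50.4 CPM in the diffOPC-like group, and all other cells together held 214 CPM. The summed level of the list was 4662, 4619, 4815 and 4955 CPM by barcode number.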
